A study of Mus musculus with 10 samples.

Results

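Prostaglandins and leukotrienes are lipid mediators made from arachidonic acid, and the 10 genes described here encode enzymes and receptors of this pathway: Ptgs1, Ptgs2, Ptges, Hpgds, Hpgd, Ptger2, Ptger4, Alox5, Alox5ap and Ltc4s. They were taken by gene name from the 36009 genes of a count table of CT26 tumors, and each name matched 1 row. CT26 is a mouse colorectal carcinoma line, here grown under the skin of wild-type female BALB/c mice. The 10 libraries of polyA RNA each came from the tumor piece removed at surgery, before a hydrogel loaded with poly(I:C), a synthetic double-stranded RNA, was laid on the tumor left behind. No library had therefore met the treatment, and the groups are 6 tumors of mice that went on to respond, with complete regression, and 4 tumors of mice in which growth was not delayed. The comparison asks which features of the untreated tumor differed between later responders and non-responders.

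Cyclooxygenases turn arachidonic acid into an unstable intermediate, and a terminal synthase then decides which prostaglandin is made from it. Prostaglandin E2 acts through the receptors EP1 to EP4 and is known in tumors for dampening T cells, NK cells and dendritic cells, whereas prostaglandin D2 is a typical product of mast cells and some myeloid cells. The leukotriene branch starts from the same fatty acid with 5-lipoxygenase and its membrane partner and is a feature of leukocytes.

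Of the 10 genes, 3 were higher in responders (Hpgds, Ptger2 and Ptger4), 2 were lower (Ptgs1 and Ptges), and 5 did not pass the test (Ptgs2, Hpgd, Alox5, Alox5ap and Ltc4s), at an adjusted p under 0.05 by the edgeR quasi-likelihood test. Levels are in CPM, counts scaled to the size of each library after TMM normalization. All 10 passed the filter on low counts. Over the 16041 genes tested, 4.71% were called higher in responders and 3.35% were called lower. Before adjustment, 4665 of these genes had a p under 0.05 in edgeR, a share to set beside the counts of unadjusted p given below. The median log2 fold change of the 10 genes was 0.04, beside -0.01 over all genes tested. For Hpgds, Ptger2 and Ptger4 the lowest responder lay above the highest non-responder, an arrangement found for 5.84% of the genes tested, and Ptgs1 and Ptges were lower in every responder, as were 4.55% of the genes tested. The other 5 genes overlapped between the groups. The plot of expression by tumor shows these 10 genes side by side.

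**Figure D1:**
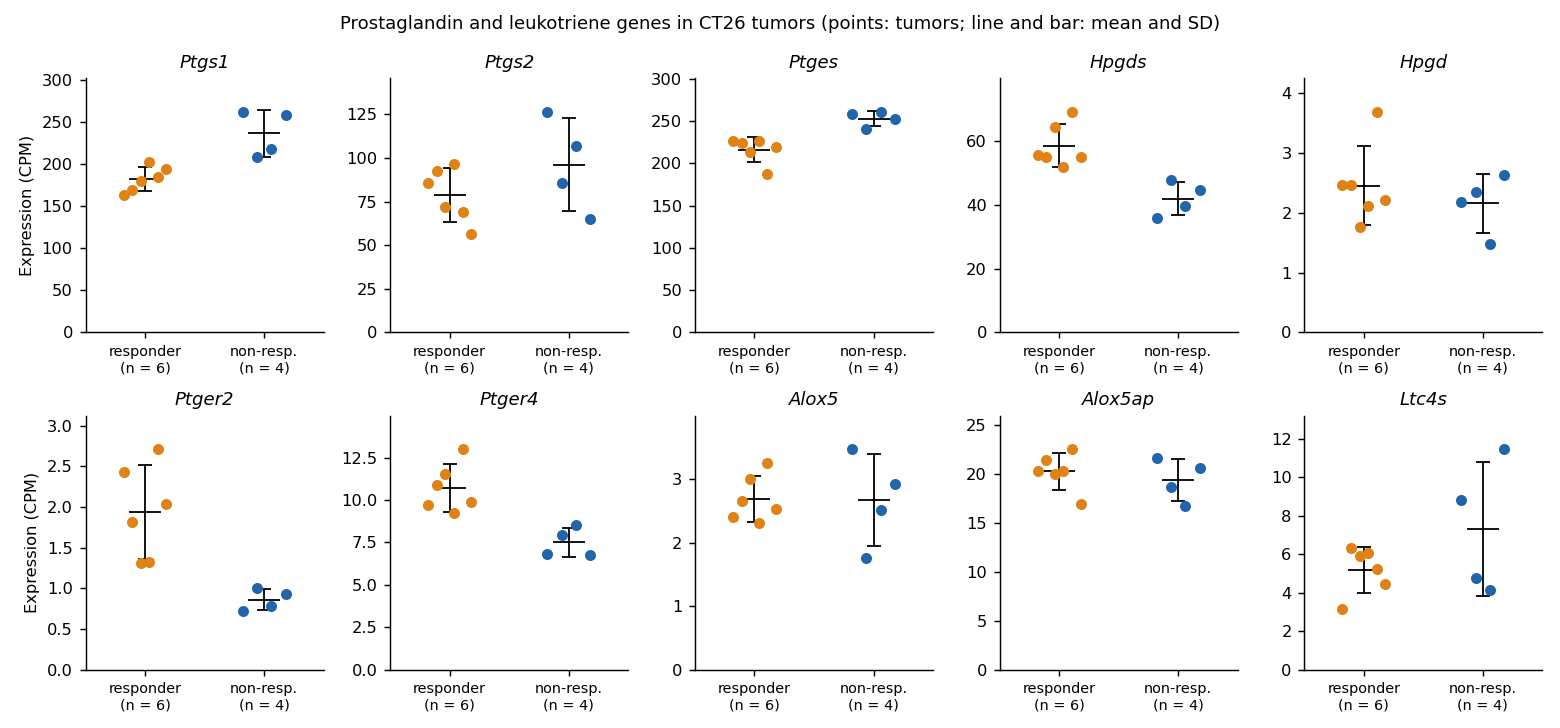
Expression in CPM (linear axes starting at 0) of the 10 genes in 6 responder tumors (orange) and 4 non-responder tumors (blue). Points are tumors, and lines and bars are the mean and SD. The groups do not overlap for Ptgs1, Ptges, Hpgds, Ptger2 and Ptger4, and they overlap for the other 5 genes.

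Libraries held between 23374649 and 38042544 estimated counts, and 15169 to 16382 genes had at least 10 counts. Depth was 29065126 to 38042544 in responders and 23374649 to 32986456 in non-responders, and the ranges overlapped through non-responder 4 alone. Non-responders 1 to 3, at 24753763, 26563619 and 23374649, lay below every responder. Of 11 markers of colorectal epithelium, 5 were not tested for low counts. Krt18 and Cdx1 had at most 3 counts in any tumor, Vil1 at most 4, Krt8 at most 14 and Epcam at most 19, while Krt20 had 454 to 1865, Lgals4 121 to 242 and Cdh1 79 to 233 counts. The remaining markers were low too, Krt19 at 0 to 20, Muc2 at 6 to 19 and Cdx2 at 13 to 40 counts. Most markers of the labelled cell type were thus low or near 0, while Krt20, Lgals4 and Cdh1 stood higher in every tumor. The tumors came from separate mice of a single experiment, and no batch is given in the labels. In bulk tumor RNA, fewer cells of a type and less RNA per cell cannot be told apart.

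The first step is catalyzed by 2 cyclooxygenases, COX-1, encoded by Ptgs1 (ENSMUSG00000047250, chr2:36230426-36252272 on GRCm38) and usually expressed without induction, and COX-2, encoded by Ptgs2 (ENSMUSG00000032487, chr1:150100031-150108227) and induced by inflammatory signals and growth factors. Ptgs1 ranged from 164.0 to 202.4 CPM in responders, with a median of 182.5, and stood at 263.0, 208.9, 217.8 and 259.3 CPM in non-responders 1 to 4. The highest responder lay just under the lowest non-responder. Ptgs1 was 1.30-fold higher in non-responders, at 237.2 ± 27.9 (SD, n = 4) against 182.7 ± 14.6 CPM (SD, n = 6), a log2 ratio, responders over non-responders, of -0.38 with a standard error of 0.08 (95% interval -0.55 to -0.20, adjusted p = 0.0304 in edgeR). Leaving out non-responder 1, non-responder 4, responder 2, responder 3 or responder 5 ended the call, with adjusted p between 0.0502 and 0.0843 in edgeR, while the log2 fold change kept its sign in all 10 omissions (-0.43 to -0.32). An exon of Ptgs1 shares 148 bases with Gm43621 on the opposite strand, and the strand setting of the counting was not stated.

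Ptgs2 did not separate the groups. It ranged from 56.5 to 96.7 CPM in responders, with a median of 78.6, and was 126.6, 85.6, 107.0 and 64.9 CPM in non-responders 1 to 4. The lowest non-responder lay below 5 of the 6 responders. The log2 fold change of Ptgs2 was -0.29 (standard error 0.19, interval at 95% -0.70 to 0.12, adjusted p = 0.333 in edgeR), and it was -0.12 without non-responder 1 and -0.44 without non-responder 4 (adjusted p = 0.741 and 0.152 in edgeR). The interval leaves room both for a fall of the size seen in Ptgs1 and for a small rise. Genes that are often measured beside COX-2 gave no call either. Of 8 such mediators (Il1a, Il1b, Il6, Cxcl1, Cxcl2, Ccl2, Csf3 and Vegfa), 0 passed the edgeR test, 1 had an unadjusted p under 0.05, and 0 were called by DESeq2 or by limma-voom. Il1b, the gene of interleukin-1 beta, was 136.9 CPM in responders and 103.5 CPM in non-responders (edgeR adjusted p = 0.221).

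The 250 bases before the RefSeq start of both cyclooxygenase genes are printed to show how their promoters differ in letters, on GRCm38.p6 (the C57BL/6J reference, whereas the tumors were BALB/c), plus strand. Capitals mark matches to a searched motif: GAGGAA (PU.1), GGGCGG (Sp1) and TTGCNNAA (C/EBP), each on both strands.
Ptgs1, chr2:36230176-36230425: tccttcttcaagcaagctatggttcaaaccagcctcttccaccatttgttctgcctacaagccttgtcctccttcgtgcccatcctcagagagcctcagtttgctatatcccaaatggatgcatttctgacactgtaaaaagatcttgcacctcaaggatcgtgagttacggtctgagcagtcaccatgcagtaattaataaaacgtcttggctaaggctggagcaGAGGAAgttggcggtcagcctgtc
Ptgs2, chr1:150099781-150100030: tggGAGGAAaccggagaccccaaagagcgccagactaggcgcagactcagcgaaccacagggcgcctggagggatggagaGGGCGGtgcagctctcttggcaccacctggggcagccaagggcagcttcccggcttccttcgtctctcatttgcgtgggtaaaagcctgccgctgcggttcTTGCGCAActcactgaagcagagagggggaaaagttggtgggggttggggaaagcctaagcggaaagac
The Ptgs1 window held 1 match, to the PU.1 letters, 18 bases before the start, and had a GC content of 48.0%. The Ptgs2 window had a GC content of 61.6% and held the palindromic TTGCGCAA 61 bases before the start, which matches the C/EBP letters on both strands, besides a PU.1 and an Sp1 match. Of its bases, 183 lie in annotated exons of the antisense gene Ptgs2os. PU.1 letters occur in 23.3%, Sp1 letters in 32.7% and C/EBP letters in 9.57% of the 32841 windows of this length in the RefSeq table. TATAAA on the gene strand (7.59% of windows), TGACG (17.8%), TGANTCA (6.75%), AGATAA (9.99%) and the NF-kB consensus (3.90%) were searched as well, and none of these was found in the windows of the 9 members that the table holds. The absence of letters speaks for these windows alone, and other start sites exist.

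Downstream of the cyclooxygenases, the synthase for prostaglandin E2 was lower in responders and that for prostaglandin D2 was higher. Ptges (ENSMUSG00000050737, chr2:30889471-30929863, minus strand) encodes the inducible microsomal prostaglandin E synthase. It was 187.3 to 226.2 CPM in responders, with a median of 221.8, and 258.1, 240.5, 261.2 and 251.8 CPM in non-responders 1 to 4. Every responder lay below every non-responder. The difference was small, 1.17-fold, at 216.1 ± 14.9 (SD, n = 6) against 252.9 ± 9.13 CPM (SD, n = 4), with an estimated log2 ratio of -0.23 with a standard error of 0.06 (95% interval -0.35 to -0.10, adjusted p = 0.0389 in edgeR). Of the 5 genes called, Ptges was called in the fewest omissions of a tumor. It passed only without non-responder 2, responder 4 or responder 5, and the other 7 omissions gave edgeR adjusted p between 0.0536 and 0.0945. Without the filter on low counts its edgeR adjusted p was 0.0513.

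Hpgds (ENSMUSG00000029919, chr6:65117293-65144908, minus strand) encodes the hematopoietic prostaglandin D synthase. It ranged from 51.8 to 69.3 CPM in responders, with a median of 55.5, and was 36.0, 47.7, 39.5 and 44.7 CPM in non-responders 1 to 4. The lowest responder lay above the highest non-responder. Hpgds was 1.39-fold higher in responders, at 58.6 ± 6.74 (SD, n = 6) against 42.0 ± 5.24 CPM (SD, n = 4), with an estimated log2 ratio of 0.48 with a standard error of 0.10 (95% interval 0.26 to 0.70, adjusted p = 0.0278 in edgeR). The call was lost without non-responder 1, 3 or 4 or without responder 3, with edgeR adjusted p between 0.0573 and 0.0692. Ptgds, the gene of the other prostaglandin D synthase, had at most 3 counts in any tumor, and the prostaglandin D2 receptor genes Ptgdr (2 to 9 counts) and Ptgdr2 (2 to 12 counts) were too low to test.

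Within the tumors, the levels of Ptges and Hpgds ran in opposite directions. Responder 5 had the lowest Ptges and the highest Hpgds of all 10 tumors, and non-responders 1 and 3 had the highest Ptges and the lowest Hpgds. Pearson's r of log2 CPM was -0.95 over the 10 tumors and -0.83 with the group means removed, given as a description since the tumors of a group and the normalization factor of a library are shared. Hpgds relative to Ptges, both as CPM per kilobase of exon, was 0.168 ± 0.0325 in responders (0.140 to 0.227, SD, n = 6) and 0.102 ± 0.0162 in non-responders (0.0853 to 0.121, SD, n = 4). The ratios of the groups did not overlap, which follows from the separation of both genes and was not tested. Scaled by the longest transcript, an alternative chosen after seeing the data, the ratio was 0.257 ± 0.0497 in responders and 0.156 ± 0.0248 in non-responders.

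**Figure D2:**
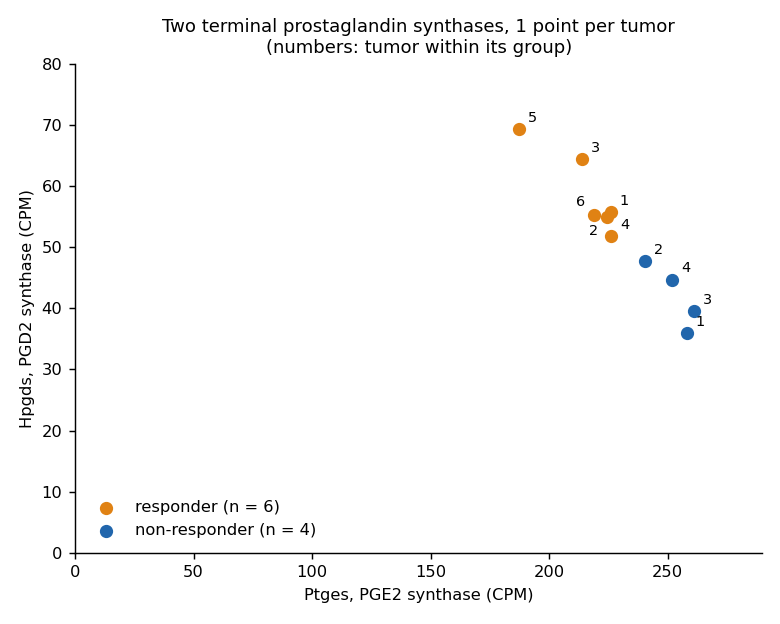
Hpgds against Ptges in 10 tumors, in CPM on linear axes starting at 0, with 1 point per tumor (orange, 6 responders; blue, 4 non-responders; numbers name the tumor within its group). The points fall along a descending line from responder 5 (187.3 CPM of Ptges, 69.3 CPM of Hpgds) to non-responder 1 (258.1 and 36.0 CPM).

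The promoter window of Ptges is printed as that of the synthase that was lower in responders, minus strand, GRCm38.p6, with matches to GAGGAA and GGGCGG on either strand in capitals.
Ptges, chr2:30903298-30903547: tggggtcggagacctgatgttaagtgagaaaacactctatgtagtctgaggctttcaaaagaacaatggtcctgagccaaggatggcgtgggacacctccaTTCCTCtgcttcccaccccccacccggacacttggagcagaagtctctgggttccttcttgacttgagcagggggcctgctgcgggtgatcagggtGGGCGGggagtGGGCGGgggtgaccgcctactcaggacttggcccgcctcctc
It had a GC content of 59.6% and held 2 Sp1 matches, 47 and 36 bases before the start, and 1 PU.1 match. The annotated gene reaches further upstream than this start. In the Hpgds window, a PU.1 match lay 43 bases and a C/EBP match 168 bases before the RefSeq start, and the GC content was 45.2%. Since 178 of its 250 bases are in an annotated first exon, that window is not printed.

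Hpgd (ENSMUSG00000031613, chr8:56294585-56321043), which encodes 15-hydroxyprostaglandin dehydrogenase, the main enzyme that inactivates prostaglandin E2, was low in all tumors. It was 1.75 to 3.69 CPM in responders, with a median of 2.34, and 2.18, 2.35, 1.47 and 2.62 CPM in non-responders 1 to 4. The groups overlapped, and 34 to 132 counts stood behind each value. The log2 fold change of Hpgd was 0.18 (standard error 0.22, interval at 95% -0.30 to 0.66, adjusted p = 0.629 in edgeR). The interval allows a difference in either direction.

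Ptger2 and Ptger4 encode EP2 and EP4, the prostaglandin E2 receptors that raise cyclic AMP. Both were higher in every responder. Ptger2 (ENSMUSG00000037759, chr14:44988195-45003820) was the lowest of the 10 genes per length and had the largest log2 fold change of them. It ranged from 1.31 to 2.71 CPM in responders, with a median of 1.92, and was 0.727, 1.01, 0.780 and 0.935 CPM in non-responders 1 to 4. Responders 3 and 4 lay close above the non-responders, and the other 4 responders lay well above. Ptger2 was 2.24-fold higher in responders, at 1.94 ± 0.574 (SD, n = 6) against 0.863 ± 0.131 CPM (SD, n = 4), with an estimated log2 ratio of 1.16 with a standard error of 0.25 (95% interval 0.62 to 1.70, adjusted p = 0.0299 in edgeR). These values rest on 18 to 97 counts per tumor.

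Ptger4 (ENSMUSG00000039942, chr15:5206661-5244187, minus strand) ranged from 9.24 to 13.0 CPM in responders, with a median of 10.4, and was 6.82, 7.91, 8.50 and 6.79 CPM in non-responders 1 to 4. It was 1.43-fold higher in responders, at 10.7 ± 1.40 (SD, n = 6) against 7.51 ± 0.843 CPM (SD, n = 4), with an estimated log2 ratio of 0.52 with a standard error of 0.11 (95% interval 0.27 to 0.76, adjusted p = 0.0310 in edgeR). Both receptors lost their call without non-responder 1, non-responder 4, responder 2 or responder 3, and Ptger2 also without non-responder 3. The edgeR adjusted p in these omissions was 0.0534 to 0.0766 for Ptger2 and 0.0575 to 0.0856 for Ptger4. Exons of Ptger2 share 246 bases with Gm17173 and 144 with Gm49364, and exons of Ptger4 share 1015 bases with the pseudogene Gm15937 and 82 with Ttc33, all on the opposite strand.

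The windows before the RefSeq starts of the receptor genes are shown because both genes were higher in responders while their promoters share little in composition (GRCm38.p6, Ptger2 on the plus and Ptger4 on the minus strand, Sp1 matches on either strand in capitals).
Ptger2, chr14:44987861-44988110: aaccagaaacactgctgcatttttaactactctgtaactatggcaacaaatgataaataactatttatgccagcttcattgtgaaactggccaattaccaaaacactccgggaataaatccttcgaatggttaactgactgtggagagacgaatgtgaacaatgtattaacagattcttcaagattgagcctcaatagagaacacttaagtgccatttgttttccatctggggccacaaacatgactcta
Ptger4, chr15:5244188-5244437: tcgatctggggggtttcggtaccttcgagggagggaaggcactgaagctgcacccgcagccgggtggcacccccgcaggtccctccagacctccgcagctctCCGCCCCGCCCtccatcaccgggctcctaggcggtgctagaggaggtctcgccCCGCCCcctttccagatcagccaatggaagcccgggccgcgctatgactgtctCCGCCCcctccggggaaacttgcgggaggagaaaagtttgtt
The Ptger2 window had 95 bases of G or C among 250, 3 CpG and no match to any searched motif, and its start was not found in the GENCODE transcripts of the gene. The Ptger4 window had 167 bases of G or C, 19 CpG and 4 Sp1 matches, all on the reverse strand, the nearest 36 bases before the start. The median GC content of all windows was 52.4%.

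Among the remaining prostanoid receptors, 5 of 7 genes were tested and 0 were called in edgeR. In this group 1 gene had an unadjusted p under 0.05, and DESeq2 and limma-voom called 0. Ptger1, the gene of EP1, was 8.56 ± 0.519 against 7.75 ± 1.43 CPM (edgeR adjusted p = 0.412), and Ptger3, the gene of EP3, was 0.449 ± 0.232 against 0.360 ± 0.161 CPM (edgeR adjusted p = 0.693). Of the 4 receptors for prostaglandin E2, EP2 and EP4 thus passed the test and EP1 and EP3 did not. Whether the receptors differed from each other in their change was not tested. Ptgir, the prostacyclin receptor gene, was 13.5 ± 2.64 CPM in responders and 18.1 ± 4.70 CPM in non-responders (edgeR adjusted p = 0.138).

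The 3 genes at the head of the leukotriene branch did not separate the groups. Alox5 (ENSMUSG00000025701, chr6:116410077-116461178, minus strand), which encodes 5-lipoxygenase, ranged from 2.31 to 3.25 CPM in responders, with a median of 2.59, and was 3.47, 1.75, 2.51 and 2.93 CPM in non-responders 1 to 4. All responders fell inside the range of the non-responders. The log2 fold change of Alox5 was 0.01 (standard error 0.18, interval at 95% -0.39 to 0.41, adjusted p = 0.974 in edgeR). Alox5ap (ENSMUSG00000060063, chr5:149264767-149288153), which encodes the protein FLAP that hands arachidonic acid to 5-lipoxygenase, ranged from 17.0 to 22.6 CPM in responders, with a median of 20.3, and was 21.6, 18.7, 16.8 and 20.6 CPM in non-responders 1 to 4. Its log2 fold change of 0.06 had the narrowest interval of the 5 genes that were not called (standard error 0.09, interval at 95% -0.14 to 0.26, adjusted p = 0.697 in edgeR).

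Ltc4s (ENSMUSG00000020377, chr11:50236461-50238616, minus strand), which encodes leukotriene C4 synthase, ranged from 3.16 to 6.34 CPM in responders, with a median of 5.56, and was 8.80, 4.74, 4.12 and 11.5 CPM in non-responders 1 to 4. Non-responders 1 and 4 lay above every responder, and non-responders 2 and 3 lay among them. Of the 10 genes, Ltc4s had the widest relative spread in a group, an SD of 47.7% of the mean in non-responders. Its log2 fold change was -0.50 (standard error 0.28, interval at 95% -1.12 to 0.13, adjusted p = 0.271 in edgeR) and was -0.18 without non-responder 4, -0.66 without non-responder 2 and -0.69 without non-responder 3, not called in any of these (adjusted p between 0.140 and 0.704 in edgeR). Exons of Alox5ap and Ltc4s share 189 and 268 bases with the opposite-strand genes Gm19719 and Gm26542.

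**Figure D3:**
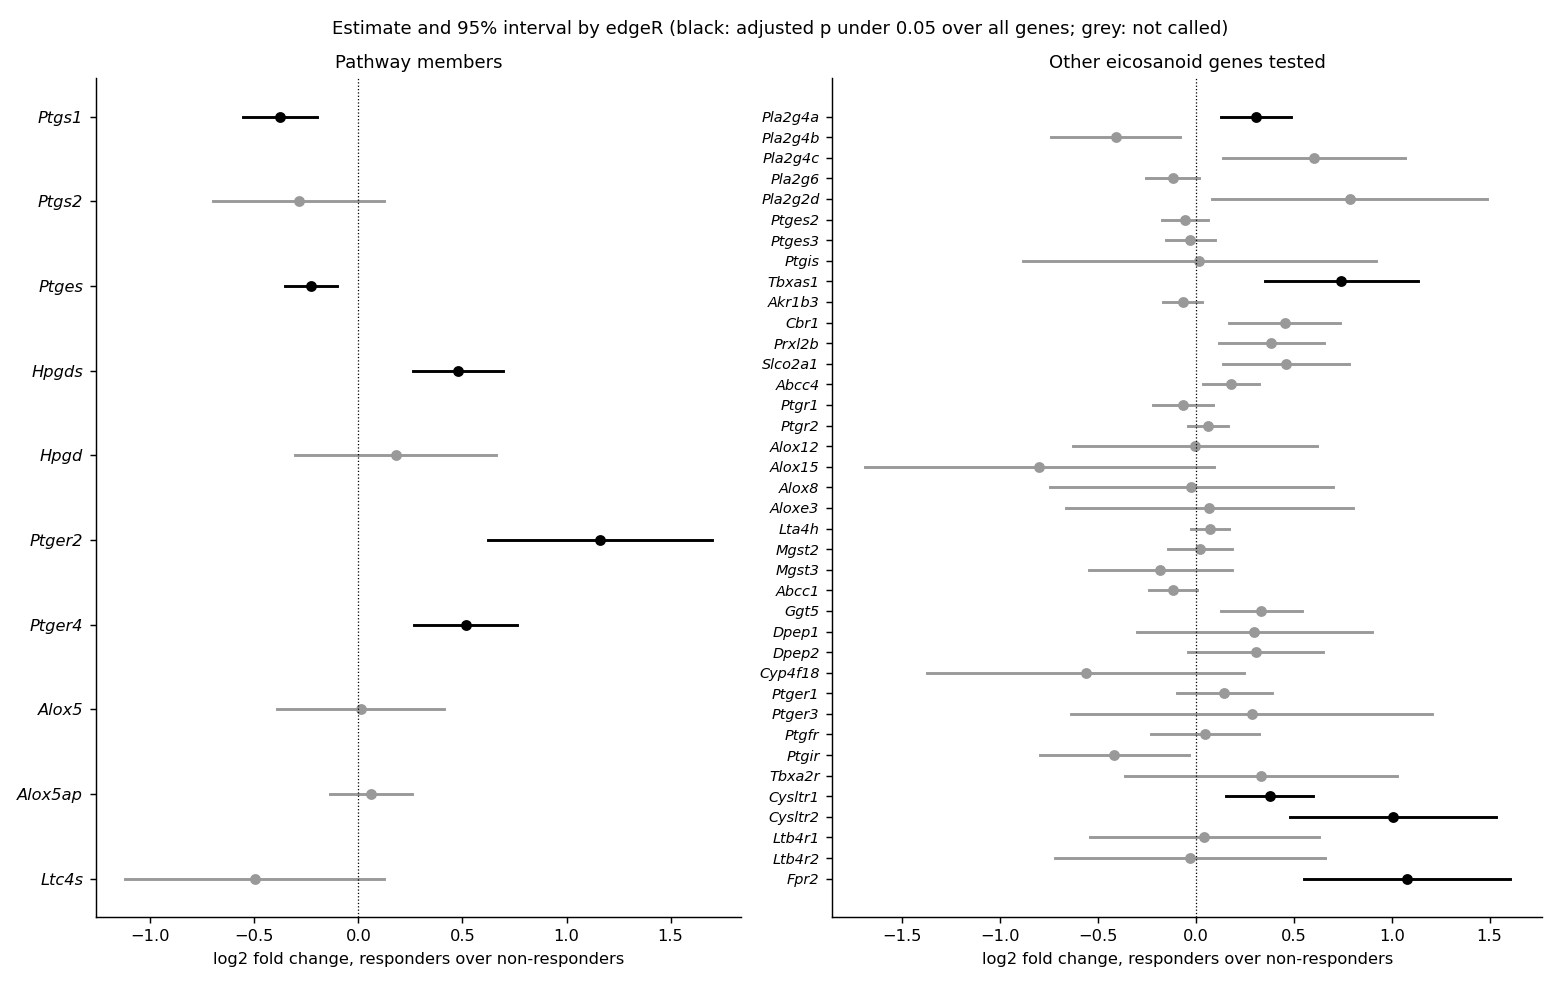
Log2 fold change of responders over non-responders by edgeR, with 95% intervals, for the 10 members (left) and the 38 other eicosanoid genes tested (right). Black points passed an adjusted p under 0.05 over all genes and grey points did not. Ptgs1 and Ptges lie left of 0, Hpgds, Ptger2 and Ptger4 right of 0, and all 5 called genes of the right panel lie right of 0.

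Beyond the 10 genes, a list of 51 further eicosanoid genes was read, of which 50 had a row and 38 passed the filter. By the edgeR test 5 were higher in responders, 0 were lower and 33 were not called, with a median log2 fold change of 0.06. Over all genes tested, 4.71% were called higher and 3.35% were called lower. In all, 14 of the 38 had an unadjusted p under 0.05 in edgeR, beside 4665 of the 16041 genes tested. Neither DESeq2 nor limma-voom called any gene of the list lower. By group, the calls were 3 of 5 leukotriene and lipoxin receptors, 1 of 7 other prostanoid synthases, 1 of 5 phospholipases A2, 0 of 8 genes of leukotriene completion, export and breakdown, 0 of 4 genes of prostanoid transport and breakdown, 0 of 4 other lipoxygenases and the receptors above. In the groups without an edgeR call, DESeq2 called Ggt5 and Slco2a1 higher, limma-voom called 0, and the unadjusted p was under 0.05 for 1 gene of leukotriene completion, 2 of transport and breakdown and 0 lipoxygenases. Pla2g2a, a secreted phospholipase gene, had 0 counts in every tumor, which allows up to 3 counts.

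Pla2g4a encodes cytosolic phospholipase A2, which frees arachidonic acid from membranes ahead of both branches. It was 59.4 ± 3.99 CPM in responders and 48.0 ± 6.29 CPM in non-responders, an estimated log2 ratio of 0.31 with a standard error of 0.08 (adjusted p = 0.0446 in edgeR), and responder 6 at 53.4 CPM lay below non-responder 3 at 53.5 CPM. Tbxas1, the thromboxane A synthase gene, was 36.7 to 54.7 CPM in responders and 16.4, 30.7, 33.5 and 22.8 CPM in non-responders 1 to 4. The groups did not overlap, an arrangement found in this direction for 5.84% of the genes tested. Tbxas1 was 1.67-fold higher in responders (log2 ratio 0.74, standard error 0.18, adjusted p = 0.0370 in edgeR). Along the cyclooxygenase branch, the synthases called by edgeR thus comprised Hpgds and Tbxas1, which were higher in responders, and Ptges, which was lower. Of the other genes listed as synthases, Cbr1 (3.42 against 2.50 CPM) and Prxl2b (7.70 against 5.89 CPM, without overlap) missed the edgeR threshold (adjusted p = 0.0524 and 0.0695) and were called higher by DESeq2, and Cbr1 was called by edgeR with the filter of 1 CPM in 4 tumors. DESeq2 also called the phospholipase gene Pla2g4c higher (edgeR adjusted p = 0.0909).

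The receptors for cysteinyl leukotrienes were higher in responders, while the genes that make these leukotrienes were not called in the edgeR test as reported. Of the genes of leukotriene completion, Ggt5 came close to the threshold (log2 ratio 0.33, adjusted p = 0.0506 in edgeR). DESeq2 called Ggt5 higher, as did edgeR with the size factors of DESeq2 or the filter of 1 CPM in 4 tumors. Cysltr1 was 16.0 ± 1.93 against 12.3 ± 1.21 CPM (log2 ratio 0.38, standard error 0.10, adjusted p = 0.0453 in edgeR) with no overlap between the groups. Cysltr1 was not called by limma-voom, or by edgeR without the filter on low counts. Cysltr2 was 2.61 ± 0.671 against 1.29 ± 0.350 CPM (log2 ratio 1.01, standard error 0.24, adjusted p = 0.0360 in edgeR), and responder 4 and non-responder 2 had the same level to 2 decimals, 1.72 CPM. Fpr2, which encodes a formyl peptide receptor that also binds lipoxin A4, was 35.7 ± 11.0 against 16.9 ± 4.86 CPM (log2 ratio 1.08, standard error 0.24, adjusted p = 0.0321 in edgeR), with responder 5 at 56.2 CPM and all responders above all non-responders. Ltb4r1 and Ltb4r2, the leukotriene B4 receptor genes, had log2 fold changes of 0.04 and -0.03 and were not called (edgeR adjusted p = 0.932 and 0.962). Whether the receptors differed from the synthesis genes in their change was not tested. When a tumor was left out, these 5 genes kept their sign, and they were still called in 3 (Pla2g4a), 3 (Tbxas1), 2 (Cysltr1), 2 (Cysltr2) and 5 (Fpr2) of 10 omissions.

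Of the genes not called, the 10 with the highest level were Ptges3, Abcc1, Akr1b3, Lta4h, Pla2g2d, Mgst2, Mgst3, Ptgr2, Abcc4 and Ptgfr. Ptges3 and Ptges2, the genes of the other enzymes named prostaglandin E synthases, had log2 fold changes of -0.03 (95% interval -0.15 to 0.10) and -0.05 (-0.17 to 0.06), with edgeR adjusted p of 0.790 and 0.540. Lta4h, which encodes the hydrolase that makes leukotriene B4, was 69.7 against 66.3 CPM (edgeR adjusted p = 0.313). Abcc4, an exporter of prostaglandins, was 27.0 against 23.8 CPM (edgeR adjusted p = 0.0974), and Abcc1, an exporter of leukotriene C4, was 111.4 against 121.0 CPM (edgeR adjusted p = 0.186). Pla2g2d, a secreted phospholipase gene, had the highest mean in responders relative to non-responders of these 10, 75.6 ± 26.4 against 44.0 ± 20.7 CPM, and did not pass (log2 ratio 0.79, standard error 0.32, adjusted p = 0.132 in edgeR). Mgst2, Mgst3, Akr1b3, Ptgr2 and Ptgfr had edgeR adjusted p between 0.355 and 0.879.

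Per kilobase of exon, a scale on which genes can be compared, Ptges and Ptgs1 stood highest of the 10 genes and the receptor Ptger2 lowest. Over all 10 tumors Ptges was at 58.7 ± 5.76 and Ptgs1 at 52.7 ± 8.81 CPM per kb (SD, n = 10), followed by Ptgs2 at 18.7 ± 4.63, Alox5ap at 14.0 ± 1.36, Hpgds at 8.08 ± 1.62 and Ltc4s at 5.94 ± 2.41. The remaining genes were lower, Ptger4 at 1.42 ± 0.304, Hpgd at 1.39 ± 0.350, Alox5 at 0.653 ± 0.121 and Ptger2 at 0.290 ± 0.136. Each gene stood above the next in 8 to 10 of the 10 tumors, except that Ptger4 was above Hpgd in 5, so the order of those neighbours is not settled on this scale. Scaled by the longest transcript in place of all exons, Ptgs1 came first (71.3 CPM per kb) and Ptges next (63.3), Hpgds stood at 13.3 and Ptger4 at 2.50, and Ptger4 was then above Hpgd (1.39) in 10 of 10 tumors. Ptgs1 therefore stood above its inducible counterpart Ptgs2, whose level per kb was 0.368 ± 0.0830 of that of Ptgs1 in responders and 0.346 ± 0.0944 in non-responders. Alox5 was far below its partner Alox5ap.

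**Figure D4:**
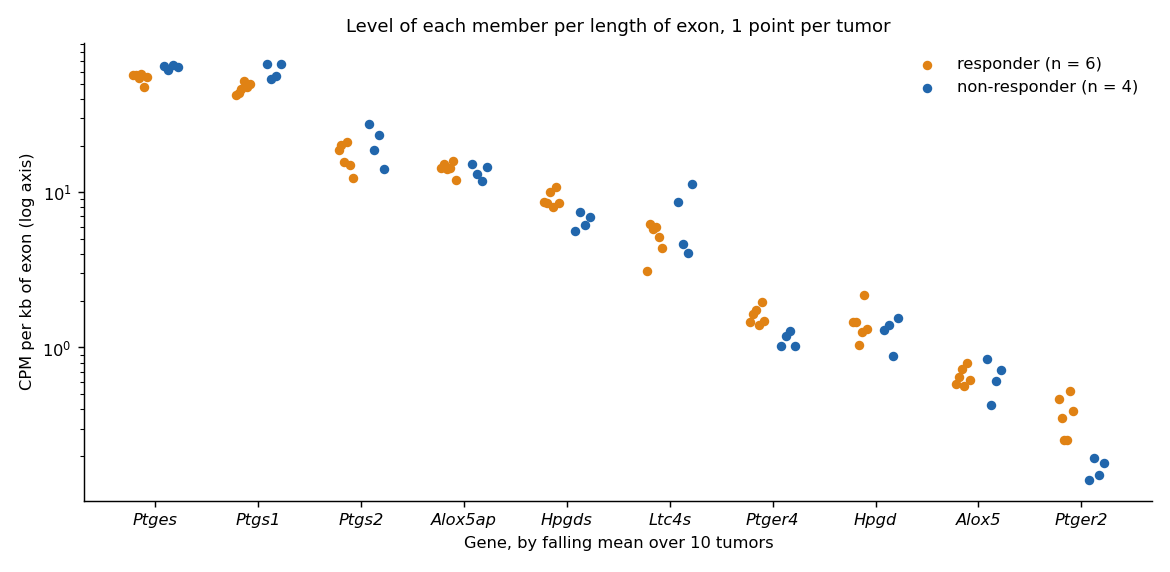
CPM per kilobase of annotated exon on a log axis for the 10 genes, ordered by falling mean over 10 tumors, with 1 point per tumor (orange, 6 responders; blue, 4 non-responders). Means fall from 58.7 for Ptges to 0.290 for Ptger2, and the points of Ptger4 and Hpgd overlap.

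Among 13732 genes with a mean of at least 1 CPM, the genes with the highest Pearson r of log2 CPM over the 10 tumors are given for each member (3, or 2 for Ptges), as a description of pattern alone. For Hpgds these were Ms4a7 (r = 0.979), a macrophage membrane protein gene, Cpa3 (0.977), the mast cell carboxypeptidase gene, and Anxa6 (0.976). For Ptger2 they were Snap29 (0.968), Cysltr2 (0.966) and Gm8369 (0.960), and for Ptger4 they were Tmem30a (0.987), Fnbp1 (0.985) and Sema4d (0.983). Ptges was most like Lgals7 (0.995), the gene of galectin-7, then Septin5 (0.983), and Ptgs1 was most like Abcd4 (0.971), Adipor2 (0.970) and Itga10 (0.965). Among the genes that were not called, Ptgs2 was most like Lif (0.950), the leukemia inhibitory factor gene, Klf5 (0.945) and Pdpn (0.945). Hpgd was most like Rpa2 (0.935), Hpn (0.930) and Slc25a38 (0.909). Alox5 was most like Aoc3 (0.949), Galns (0.932) and Htra1 (0.930), Alox5ap like Cbx1 (0.910), Ajuba (0.885) and Dolpp1 (0.881), and Ltc4s like Commd3 (0.965), Sppl2b (0.944) and Selenof (0.938). All tumors of these pairs share their library and its normalization.

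Most macrophage markers and some markers of other leukocytes were higher in responders. Ptprc, the gene of the pan-leukocyte protein CD45, was 380.5 ± 63.1 CPM in responders and 250.6 ± 55.6 CPM in non-responders (log2 ratio 0.60, standard error 0.15, adjusted p = 0.0413 in edgeR). Of 9 macrophage markers, 6 were called higher in responders (Adgre1, Cd68, C1qa, C1qb, C1qc and Fcgr1) and 0 lower by edgeR. Csf1r, Mertk and Mrc1 were not called, and the mean of Mrc1 was lower in responders, 410.6 against 449.4 CPM. The summed level of all 9 was 2985 to 4446 CPM in responders and 2078 to 2819 CPM in non-responders. Of 10 mast cell markers, 2 were called higher (Cma1 and Kit), and the sum was 128.5 to 312.5 against 111.1 to 147.8 CPM. Calls were also made for 1 of 4 tested monocyte markers (Ly6c2), 1 of 6 dendritic cell markers (Xcr1), 1 of 6 T cell markers (Lck), 1 of 4 NK cell markers (Klre1) and 2 of 5 skeletal muscle markers (Acta1 and Ckm), all higher in responders. DESeq2 called 6 macrophage, 4 mast cell, 2 monocyte, 2 dendritic cell, 5 T cell, 3 NK cell and 4 muscle markers, all higher. It called more genes throughout, 1542 of 15270 being higher in responders, against 756 of 16041 by edgeR. limma-voom called 6 macrophage, 0 mast cell, 1 monocyte, 1 dendritic cell, 0 T cell, 0 NK cell and 1 muscle marker. There, 8 mast cell, 5 T cell and 4 NK cell markers had an unadjusted p under 0.05. Of all 16041 genes, limma-voom called 630 higher, and 4612 had an unadjusted p under 0.05. Their part in the differences of Hpgds, Ptger2, Ptger4, Ptgs1 and Ptges was not tested.

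Markers of the remaining cell types gave no call in the edgeR test as reported. Of 6 fibroblast markers 0 were called (1 with an unadjusted p under 0.05), with sums of 3942 to 4637 CPM in responders and 3348 to 5640 CPM in non-responders. Of 4 platelet markers tested 0 were called (0 with an unadjusted p under 0.05), the sums being 24.0 to 32.9 against 23.2 to 44.5 CPM, and Gp9 was at most at 3 counts. Neutrophil markers gave 0 of 6 (1 unadjusted) with at most 1 count of Ly6g, and eosinophil markers 0 of 3 (0 unadjusted) with at most 2 counts of Epx and at most 6 of Prg2. Endothelial markers gave 0 of 5 (0 unadjusted), B cell markers 0 of 4 (2 unadjusted), keratinocyte markers 0 of 1 (0 unadjusted) and colorectal epithelial markers 0 of 6 (3 unadjusted). Adipocyte markers gave 0 of 4 (4 unadjusted), with a median log2 fold change of 2.05, the highest of the marker lists, and sums of 15.6 to 52.1 CPM in responders and 8.54 to 19.2 CPM in non-responders. Of these, Fabp4 was called higher by edgeR with the size factors of DESeq2 or the filter of 1 CPM in 4 tumors, and its part in the differences of the 5 called members was not tested. In these lists DESeq2 called 2 B cell, 4 adipocyte and 1 epithelial marker (Cdx2, lower in responders), and limma-voom called 0.

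The direction of all 5 called members was the same under every processing setting and every omission of a tumor, but their calls depended on which tumor was left out. All 5 were still called by edgeR without non-responder 2 or without responder 4. DESeq2 and limma-voom called the same number, 5 of 10. Without non-responder 1, non-responder 4 or responder 3, edgeR called 0 of the 10 members, and over all genes it then called 16, 0 and 17. In these omissions 5, 6 and 5 members had an unadjusted p under 0.05, as did 3654, 4106 and 4051 of all genes. The plot of adjusted p by setting shows these columns.

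**Figure D5:**
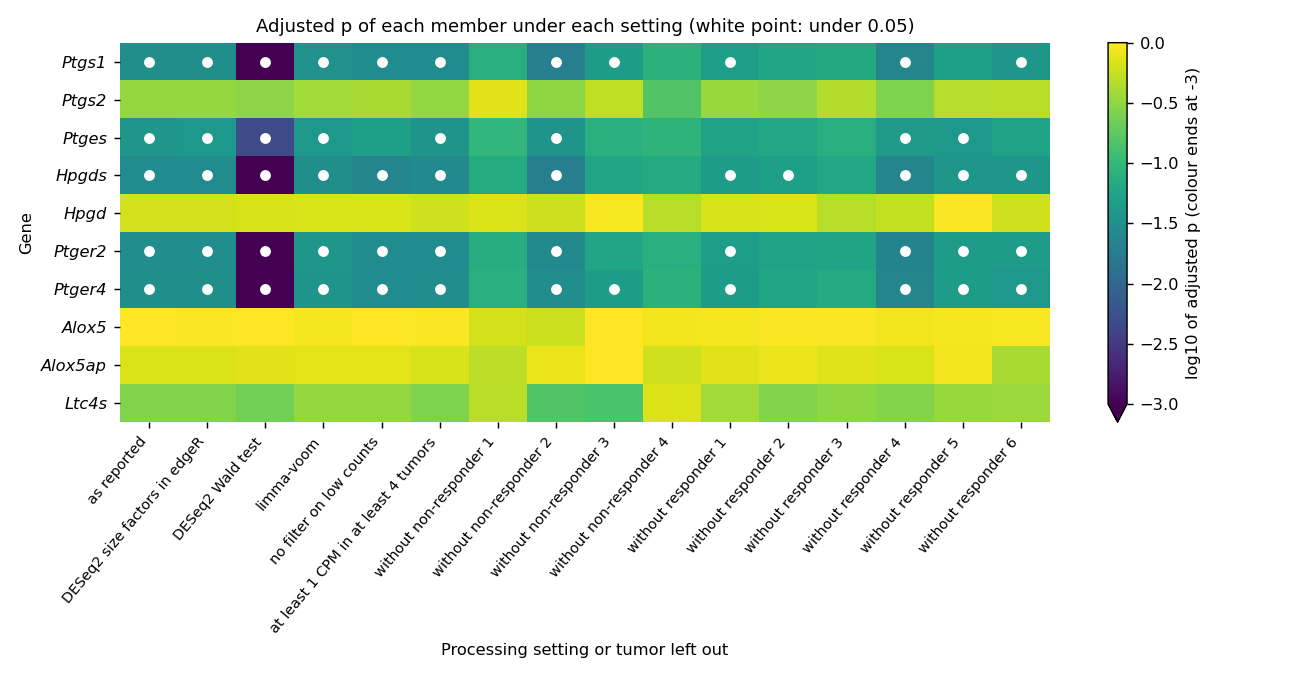
Log10 of the adjusted p of the 10 genes (rows) as reported, under 5 other processing settings and with each of 10 tumors left out (columns). White points mark an adjusted p under 0.05, and values below the lower end of the colour scale share its last colour. The rows of Ptgs1, Ptges, Hpgds, Ptger2 and Ptger4 carry the white points, and the columns without non-responder 1, non-responder 4 and responder 3 have none.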

How the data were processed

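The authors reviewed reads with FastQC, estimated transcript abundance by pseudoalignment with Kallisto and summed it to genes with tximport on mm10 (GRCm38 in the submitters' processing notes). The deposited values are estimated counts per gene, not scaled to depth, and 45.1% of them are fractional. The annotation release, tximport scaling and strand setting are not given in the sources used here. Reads shared by overlapping or similar genes are split between them, so such counts are uncertain. Rows without a gene name (9633) made up no more than 1.23% of a library and stayed in the library sizes.

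Tumors were grouped by their labelled response and numbered by accession, which pairs nothing. Counts were rounded and tested in R 4.3.3 with edgeR 4.0.16 (filterByExpr with a minimum count of 10 and a minimum total of 15, TMM, two-sided quasi-likelihood test, Benjamini-Hochberg adjustment over all 16041 genes tested, threshold 0.05). No library lost more than 0.0716% of its counts to the filter. Standard errors and 95% intervals came from the F statistic and its degrees of freedom. Levels are CPM on TMM-scaled library sizes. Exon lengths, coordinates and overlaps came from GENCODE annotation of GRCm38, and promoter windows from RefSeq, which matched 9 of the 10 members. The scripts were tested on simulated counts. Alternatives were other size factors, DESeq2 1.42.0, limma-voom (limma 3.58.1), other filters on low counts, exon or transcript length, and leaving out each tumor.

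The members and lists were chosen with earlier results of these data known. Named are all 10 members, every other eicosanoid or inflammatory gene called, the 10 of the wider eicosanoid list with the highest mean CPM among those not called, and the 3 genes most like each member by Pearson's r, of which 1 is not reported here. Ptger1, Ptger3, Ptgir, Ptges2, Cbr1, Prxl2b, Pla2g4c, the leukotriene B4 receptors, the untested receptors and synthases, Il1b and Ptprc were added after their values were seen. Dpep2 has 2 rows, and the row with the higher total was used.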

Additional observations from a re-analysis of the deposited data

Results flagged for a closer look

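In 3 of the 30 groups of values examined, a single tumor stood far from the rest of its group by Dixon's test, where chance gives about 1.5, and each time it was responder 5. Ptges was 187.3 CPM in responder 5 and 213.7 to 226.2 CPM in the other 5 responders. Hpgd was 3.69 CPM there and 1.75 to 2.47 CPM in the others. The level of Hpgd per kilobase relative to that of Ptges was 0.0461 there and 0.0192 to 0.0257 in the others. This ratio is formed from the levels of Hpgd and Ptges, so the 3 flags are not independent, and their number cannot be weighed against 1.5 as if they were. Responder 5 also had the highest values of Hpgds, Ptger2, Ptger4, Alox5 and Alox5ap among the responders. The same held for every called gene of the wider eicosanoid list, Pla2g4a, Tbxas1, Cysltr1, Cysltr2 and Fpr2. Without responder 5, the genes called by edgeR fell from 1293 to 412 and those of the wider eicosanoid list from 5 to 1 (Fpr2), Ptgs1 was not called (adjusted p = 0.0502), and edgeR still called Ptges (adjusted p = 0.0400) and gave Hpgd a log2 fold change of 0.02 (adjusted p = 0.952).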

How the results depend on the processing

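No paired analysis applied, because the tumors came from separate mice and their numbers only follow accession order. Under DESeq2 the number of genes called over all genes rose from 1293 to 2580, and that of the wider eicosanoid list from 5 to 10, while the members called stayed at 5. The other processing settings gave 931 to 1382 genes, 4 to 5 members and 4 to 7 genes of the wider list. Leaving out 1 tumor gave 0 to 1897 genes, 0 to 5 members and 0 to 6 genes of the wider list, and 4106 genes had an unadjusted p under 0.05 in edgeR without non-responder 4, where 0 were called. The log2 fold change of Alox5 changed sign without non-responder 2 (-0.14), non-responder 3 (-0.01), responder 3 (-0.02) or responder 5 (-0.05), the highest value being 0.17 without non-responder 1. That of Alox5ap did so without non-responder 3 (-0.0031), with up to 0.12 without non-responder 1. These were estimates near 0 that were not called. Ptges missed the threshold without the filter on low counts, where more genes were tested. Scaling by the longest transcript moved the level per kilobase by more than 1 SD for Ptgs1 (71.3), Alox5ap (15.9), Hpgds (13.3), Ltc4s (8.41) and Ptger4 (2.50). Low counts limit Ptger2, Alox5 and Hpgd, which had from 18 to 132 counts per tumor.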
